A study of Homo sapiens with 8 samples.

Results

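The genes described here were the very long protein-coding genes that Panc10.05 cells expressed: autosomal protein-coding genes with an annotated span (end minus start, GENCODE release 44 on GRCh38) of over 500 kb and a mean of at least 1 CPM (gene counts scaled to the library total) over the 8 libraries. The rule found 98 genes among the 60675 genes listed, and among 309 autosomal protein-coding genes of that span. Of the other 211, 67 had no read in any library. The mean level over all libraries therefore chose the genes. For 6 of them (FHIT, MAGI2, LAMA2, SPOCK1, HIVEP3 and SLC4A4) the mean was under 1 CPM in at least 1 group, so that groups where they were high brought them in, and their differences between those groups are given as descriptions although they stay in the counts. Panc10.05 is a long-established line from a human pancreatic tumour. Indisulam is a sulfonamide that glues RBM39, a protein of splicing, onto the ubiquitin ligase DCAF15, after which RBM39 is degraded. The 4 groups of 2 libraries each were parental untreated cells, parental cells given 2 µM indisulam for 18 h, resistant cells kept on 2 µM indisulam without a break (resistant indisulam), and resistant cells taken off the drug for about a week (resistant untreated). The resistant cells were a derivative of Panc10.05 grown in rising doses of indisulam over months, and the labels gave no change to the genome of either line. The growth notes in the labels named A549, a lung cancer line, but both the titles and the field for the cell line named Panc10.05, and these were followed. Both libraries of each group were technical replicates by the study's account, and p-values measured only the spread between them.

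A gene of this size is almost all intron. RNA polymerase II needs hours to cross it, introns must be removed by joining splice sites that lie very far apart, and loss of the elongation kinase CDK12, of topoisomerase I or of U1 snRNP is known to cut such transcripts short before shorter genes are affected. Many of these genes lie in common fragile sites, where transcription of a late-replicating long gene coincides with breakage under replication stress, and many are best known from neurons, although the ones described here were read in epithelial cancer cells.

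The libraries held 65266253 to 108002436 gene reads. Transcripts of RBM39 were higher under indisulam in both lines, by 1.11 ± 0.03 (log2 fold change ± SE) in parental and 0.94 ± 0.03 in resistant cells, and since indisulam acts on the protein this did not test the labels. Epithelial markers were all read: EPCAM lay between 401 and 452 CPM, and the summed level of 8 epithelial markers was 6604 to 6839 CPM in the parental and 11030 to 12960 CPM in the resistant libraries. The summed level of 6 fibroblast markers was 1.34 to 1.89 CPM in 3 groups and 4.09 to 4.14 CPM in resistant indisulam, nearly all of it COL1A1, with DCN and LUM at 0 reads in every library. Of 6 neuronal markers, STMN2, NEFL and RBFOX3 were at 0 reads in every library, while SYP was read at 0.557 to 1.49 CPM. Of 5 leukocyte markers, PTPRC and CD3E were at 0 reads, while CD14, CD68 and CD79A were read at 0.0153 to 0.38 CPM. In bulk RNA, fewer cells with a transcript and less of it per cell cannot be told apart.

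The 98 genes spanned 503 kb to 2058 kb, with a median of 687 kb, against a median of 33.5 kb in the 10392 other protein-coding autosomal genes at 1 CPM or more. Their longest canonical intron had a median of 157 kb, against 9.01 kb in the others, and the longest of all was the 779 kb intron of WWOX. Exons covered a median of 1.81% of the span, against 17% in the others, and the canonical transcript had a median of 21.5 exons and 6951 bases, against 9 exons and 3402 bases. The canonical transcript itself spanned over 500 kb in 72 of the 98 genes. In the other 26 the annotated span came from other isoforms, as in EGLN3, whose canonical transcript covered 26.8 kb of its 538 kb. The genes lay on 19 of the 22 autosomes, with 12 each on chromosomes 1 and 3 and none on 18, 19 and 22. At the thresholds, FHIT was just inside with 1.04 CPM and CFAP299 just outside with 0.933 CPM. DNAH14 was just inside at 503 kb and DIAPH3 just outside at 498 kb.

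All 98 longest introns began with GT and ended with AG, as did nearly all of those of other genes (10149 and 10206 of 10210). The pyrimidine share was taken over 20 bases, leaving out the base just before the final AG. It had a median of 80% (45% to 100%) in the 98 genes and 75% (30% to 100%) in the others. The ends of the longest introns of 8 genes are given because the results below turn on these genes and because the drug removes a splicing factor related to one that binds near 3′ splice sites. Each is the last 30 bases of the intron, 5′ to 3′ on the strand of the gene, from the GRCh38 reference, with the acceptor AG in capitals.
MACROD2, chr20:15229910-15229939, plus strand, end of a 545 kb intron: tcctctttttccttccttttgtatttacAG
DPYD, chr1:97098633-97098662, minus strand, end of a 94.4 kb intron: tgcttccttatttgtgtgttttccttttAG
DOCK1, chr10:127247978-127248007, plus strand, end of a 120 kb intron: atctaattctatcttttgattcatttacAG
PTPRK, chr6:128397689-128397718, minus strand, end of a 123 kb intron: gaatgtaacagtagtcttcttttctcctAG
RYR2, chr1:237270467-237270496, plus strand, end of a 228 kb intron: atttttccctctctttctccccctttgcAG
SHANK2, chr11:70896568-70896597, minus strand, end of a 160 kb intron: acttaacttaatgtgattttcactttgcAG
NAV2, chr11:19832454-19832483, plus strand, end of a 119 kb intron: cctaaagttgcctgtttgctttttttacAG
SPOCK1, chr5:137267056-137267085, minus strand, end of a 231 kb intron: acctttgttttctattttttccttatatAG
The pyrimidine share of these ends ran from 65% in SHANK2 and 75% in DOCK1 and PTPRK to 95% in RYR2. The files gave reads per gene and not per junction, so none of the values below shows whether these introns were spliced.

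Most of the genes were read at moderate levels. The mean CPM ranged from 1.04 (FHIT) to 399.9 (PALM2AKAP2), with 38 genes between 1 and 10 CPM, 51 between 10 and 100 and 9 above. Per kilobase of canonical transcript, ADK, which phosphorylates adenosine, had the highest level at 81.8 RPKM and ANK2, an ankyrin that ties membrane proteins to the cytoskeleton, the lowest at 0.0903 RPKM. PALM2AKAP2, a fusion locus that encodes an anchor of protein kinase A, took the most reads of all, at 438 and 441 CPM without and 484 and 491 CPM with the drug in parental cells, and at 315 and 310 CPM without and 363 and 363 CPM with it in resistant cells. It was thus lower in the resistant line and higher under the drug in both. The other genes with the most reads were NAV2, FAF1, ADK and LPP. Together the 98 genes took 0.346% ± 0.0001 (SD, n = 2) of gene reads in untreated and 0.382% ± 0.0062 in treated parental cells, and 0.354% ± 0.0001 in untreated and 0.358% ± 0.0081 in treated resistant cells. The highest group mean fell in parental indisulam for 40 of the 98 genes, and the lowest in resistant indisulam for 35.

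In parental cells, indisulam was followed by more calls upward than downward among the very long genes. Of the 98 genes, 49 rose and 14 fell (adjusted p under 0.05, edgeR's quasi-likelihood test), against 31.6% of all 16661 genes tested that rose and 26.6% that fell. In all, 58.2% of the genes tested were called. Of the 10490 protein-coding autosomal genes at 1 CPM or more, 44.4% rose and 26% fell, so the share of rises among the very long genes was near that of such genes. The changes were small: 85 of the 98 lay within 0.5 log2 units, none passed 1, and the median was 0.12 against 0.01 over all genes tested and 0.07 over the protein-coding autosomal genes at 1 CPM or more. With library totals in place of TMM (the trimmed mean of M values), 40 rose and 21 fell, and the median was 0.05 against -0.05 over all genes. Offsets for GC content and exonic length took the median of all genes to 0.10, which cut the gap of the very long genes from 0.10 to 0.04, and the 14 falls became 8 without parental untreated 1 and 9 without parental untreated 2.

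HDAC9, a histone deacetylase of muscle and immune cells, rose most. Its level was 76.4 and 77.1 CPM before and 126.9 and 125.5 CPM after the drug, a rise of 0.72 ± 0.03 (log2 ± SE; adjusted p = 2.5e-14). The groups did not overlap, which was a condition for naming the gene. In resistant cells HDAC9 was lower throughout, at 51.3 CPM in both untreated libraries and 60.7 and 65.1 CPM on the drug. AKAP6, an anchor of protein kinase A at the nuclear envelope, rose by 0.67 ± 0.08, from 4.74 and 4.99 to 7.80 and 7.66 CPM. SUPT3H, a subunit of the SAGA coactivator complex, rose by 0.65 ± 0.05, from 10.0 and 9.47 to 15.1 and 15.4 CPM. BBS9, a subunit of the BBSome that carries cargo at cilia, rose by 0.58 ± 0.08. LAMA2, the alpha chain of a basement membrane laminin, stood at 0.813 and 0.936 CPM untreated and 1.29 and 1.47 CPM treated. Since LAMA2 met the mean of 1 CPM only through the treated groups, a difference under the drug was built into its choice.

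SHANK2, a scaffold of synapses and of epithelial apical membranes, fell most in parental cells. It stood at 16.5 and 16.1 CPM untreated and at 9.87 and 9.97 CPM treated, a fall of 0.72 ± 0.05 on the log2 scale (adjusted p = 3.7e-11). KAZN, a desmosome-associated protein, fell by 0.66 ± 0.07, from 9.23 and 8.50 to 5.56 and 5.67 CPM. In both genes all treated libraries lay below all untreated ones, which was again a condition for naming them. RABGAP1L, a GTPase-activating protein for Rabs, fell by 0.52 ± 0.05. ANK3, the ankyrin of axon initial segments and lateral membranes, fell by 0.51 ± 0.05, and ULK4, a kinase-like protein, by 0.46 ± 0.12. Of the exonic bases of KAZN, 24.9% lay opposite exons of an antisense gene, and the strand setting of the counting was not given in the sources used here.

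In resistant cells the balance was the other way round. Between resistant untreated and resistant indisulam, 25 of the 98 genes rose and 46 fell, where 24.9% of all genes tested rose and 25.8% fell, 50.7% in all. The median was -0.09, against 0.01 over all genes tested and -0.02 over protein-coding autosomal genes at 1 CPM or more, of which 27.7% rose and 34.9% fell. With offsets for GC content and exonic length the median over all genes went to -0.04, and the gap of the very long genes to it from -0.10 to -0.05. Of the 98, LAMA2 alone was higher by over 1 log2 unit and 4 fell by as much.

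DPYD, which degrades uracil, thymine and 5-fluorouracil, fell most. Its level was 113.7 and 112.0 CPM in resistant untreated and 41.99 and 42.73 CPM in resistant indisulam, a fall of 1.41 ± 0.03 on the log2 scale (adjusted p = 8.2e-20). In parental cells it stood at 48.9 and 47.6 CPM without and 43.1 and 46.1 CPM with the drug, so only the resistant untreated libraries were high. SHANK2 stood at 29.2 and 30.9 CPM without the drug and at 12.9 and 13.1 CPM on it, a fall of 1.21 ± 0.05, and KAZN fell by 1.15 ± 0.08, from 9.18 and 9.55 to 3.93 and 4.44 CPM. SHANK2 and KAZN thus fell in both lines. DOCK1, an activator of the GTPase Rac that acts in migration and engulfment, went from 27.6 and 26.7 CPM to 13.2 and 13.0 CPM, a fall of 1.05 ± 0.04 (adjusted p = 3.5e-15). In parental cells DOCK1 stood at 49.7 and 47.8 CPM without and at 50.7 and 52.3 CPM with the drug, and the difference did not pass the test (adjusted p = 0.056). HIVEP3, a zinc finger transcription factor, fell by 0.89 ± 0.09, from 6.51 and 6.16 to 3.38 and 3.44 CPM.

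LAMA2 stood at 0.756 and 0.708 CPM without and at 1.60 and 1.52 CPM with the drug in resistant cells, on 46 to 146 reads per library, a difference again built into its choice. The fibroblast marker COL1A1 moved with it in this line, as given above, but not in the parental line, and its part in the result was not tested. SYNE1, the giant nesprin that links the nuclear envelope to actin, stood at 3.96 and 4.05 CPM without and at 7.40 and 7.52 CPM with the drug, a rise of 0.90 ± 0.09 (adjusted p = 5.9e-09). NAV2, a neuron navigator that binds microtubule tips, rose by 0.58 ± 0.04, from 149 and 152 to 222 and 228 CPM, close to its rise of 0.55 ± 0.04 in parental cells, from 179 and 178 to 247 and 275 CPM. ATRNL1, an attractin-like membrane protein, rose by 0.56 ± 0.09, and EGLN3, a prolyl hydroxylase of hypoxia-inducible factor, by 0.55 ± 0.09.

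**Figure D1:**
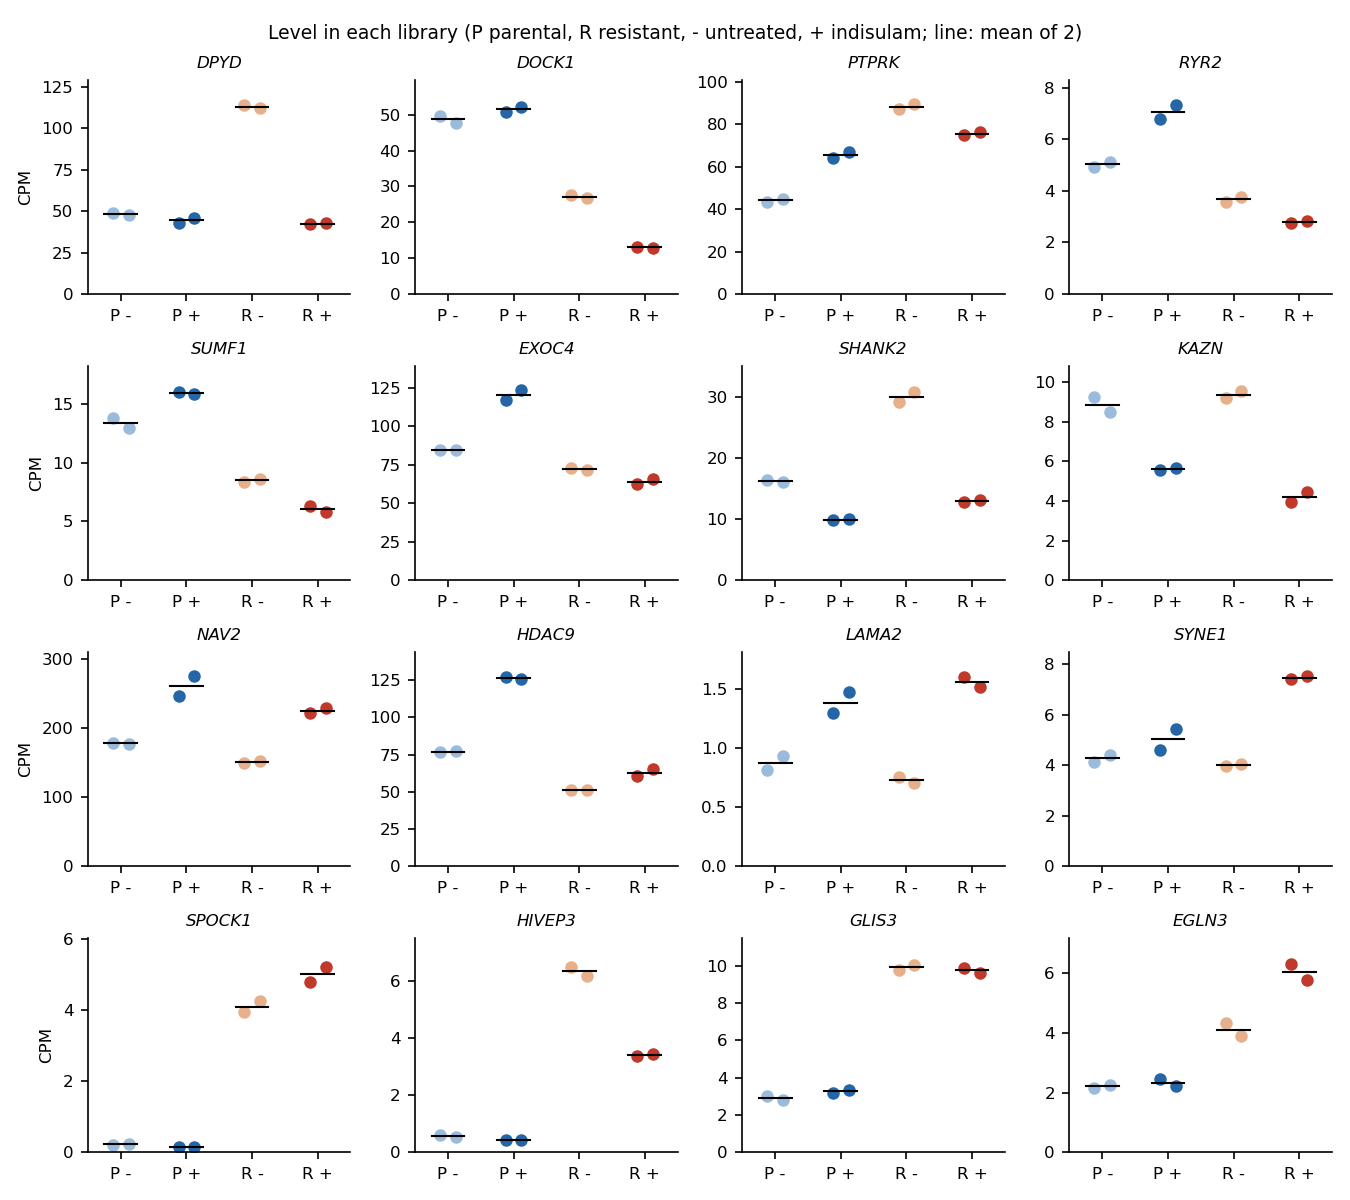
Scaled CPM of 16 of the very long genes in each of the 8 libraries, with the mean of the 2 libraries of a group as a line and the axis of each panel starting at 0. DPYD was high in resistant untreated alone, DOCK1 lowest in resistant indisulam, SHANK2 and KAZN low under the drug in both lines, and SPOCK1 near 0 in all parental libraries.

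The response of the lines was then compared directly, as the resistant response minus the parental response. The parental response was to 18 h of drug in cells not treated before, and the resistant one set continuous drug beside its withdrawal, so line and treatment schedule cannot be told apart. The difference was lower in resistant cells for 49 of the 98 genes and higher for 9, where 27.5% of all genes tested were called lower and 22.7% higher, 50.1% in all. The median difference was -0.23, against 0.01 over all genes tested and -0.08 over the 10490 protein-coding autosomal genes at 1 CPM or more, of which 40.4% were called lower and 21.2% higher. Of the 98 genes, 74 had a difference below 0 and 24 above. Above 0 lay 8506 of the 16661 genes tested and 4126 of those 10490 protein-coding autosomal genes. Among the latter, 175 of the 623 genes of 200 to 500 kb lay above 0. With library totals the split was 39 lower and 16 higher, at a median of -0.11 against 0.13 over all genes, and the gap to all genes stayed between -0.36 and -0.16 over all the alternatives run.

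DPYD had the lowest difference, -1.30 ± 0.05 (adjusted p = 2.5e-15), followed by DOCK1 at -1.13 ± 0.06 (adjusted p = 3.4e-13). RYR2, the calcium release channel of heart muscle, went from 4.94 and 5.12 to 6.79 and 7.32 CPM in parental cells and from 3.56 and 3.77 to 2.77 and 2.83 CPM in resistant cells. The line responses of RYR2 were thus opposite, 0.49 ± 0.07 and -0.39 ± 0.09, with a difference of -0.87 ± 0.12 (adjusted p = 2.3e-06). PTPRK, a receptor tyrosine phosphatase of cell contacts, went from 43.4 and 45.0 to 64.1 and 67.0 CPM in parental cells and from 87.3 and 89.5 to 74.8 and 76.4 CPM in resistant cells, a difference of -0.79 ± 0.05 (adjusted p = 7.4e-12). SUMF1, which activates sulfatases in the endoplasmic reticulum, rose from 13.8 and 13.0 to 16.1 and 15.9 CPM in parental cells and fell from 8.34 and 8.65 to 6.32 and 5.77 CPM in resistant cells, a difference of -0.75 ± 0.08. EXOC4, a subunit of the exocyst that tethers secretory vesicles, followed the same pattern, from 84.9 and 84.4 to 117 and 123 CPM and from 72.8 and 71.5 to 62.3 and 65.5 CPM, a difference of -0.68 ± 0.05 (adjusted p = 9.0e-11). In each of these 4 genes both treated libraries lay above both untreated ones in parental cells and below them in resistant cells.

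Among the longest genes, MACROD2, which removes ADP-ribose from proteins, stood at 1.57 and 1.66, then 1.91 and 1.59 CPM in parental cells without and with the drug, and at 2.55 and 2.31, then 1.78 and 1.69 CPM in resistant cells. It was called in the resistant response (-0.50 ± 0.13) and in the difference of responses (-0.61 ± 0.18, adjusted p = 0.0069) but not in the parental response. The call on the difference was lost in DESeq2 and without parental indisulam 1, with values of -0.72 to -0.46 over the alternatives. TBC1D5, a Rab7 regulator of retromer, was called in both responses and in their difference, at 0.27 ± 0.03 and -0.16 ± 0.03 with a difference of -0.44 ± 0.04. FHIT, a dinucleotide hydrolase at the fragile site FRA3B, had a difference of -0.58 ± 0.25 (adjusted p = 0.056) and CCSER1 one of -0.33 ± 0.17 (adjusted p = 0.12), and neither passed the test, at levels of 0.634 to 2.11 CPM over the libraries. MAGI2, a junction scaffold, had a difference in the other direction, 0.48 ± 0.22 (adjusted p = 0.072).

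The 9 genes with a higher response in resistant cells were SPOCK1, ATRNL1, SYNE1, FRMD4A, EGLN3, CEP112, GSE1, MAST4 and RIMS2. ATRNL1 stood at 6.37 and 5.76, then 5.39 and 5.57 CPM in parental cells without and with the drug, and at 3.81 and 3.67, then 5.27 and 5.70 CPM in resistant cells, a difference of 0.71 ± 0.12 (adjusted p = 2.2e-05). The untreated resistant libraries were the low ones. SYNE1 had a difference of 0.66 ± 0.12 and EGLN3 one of 0.47 ± 0.14. FRMD4A, a scaffold of epithelial polarity, had one of 0.51 ± 0.15, although 13.5% of its exonic bases lay opposite exons of PRPF18. SPOCK1, a secreted proteoglycan, had a difference of 0.88 ± 0.33, which rested on 11 and 12 reads in parental indisulam. It met the mean of 1 CPM only through the resistant libraries, so this value is a description. SPOCK1 lost its call in DESeq2 and without parental untreated 2, either parental indisulam library or resistant indisulam 2 (0.77 to 0.99 over the alternatives). FRMD4A lost its call in DESeq2 and without resistant indisulam 2 (0.39 to 0.67), and EGLN3 in DESeq2 (0.41 to 0.58). RIMS2, at 0.13 ± 0.05, lost its call in DESeq2, with DESeq2's size factors in edgeR and without any of 5 libraries (0.12 to 0.25).

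**Figure D2:**
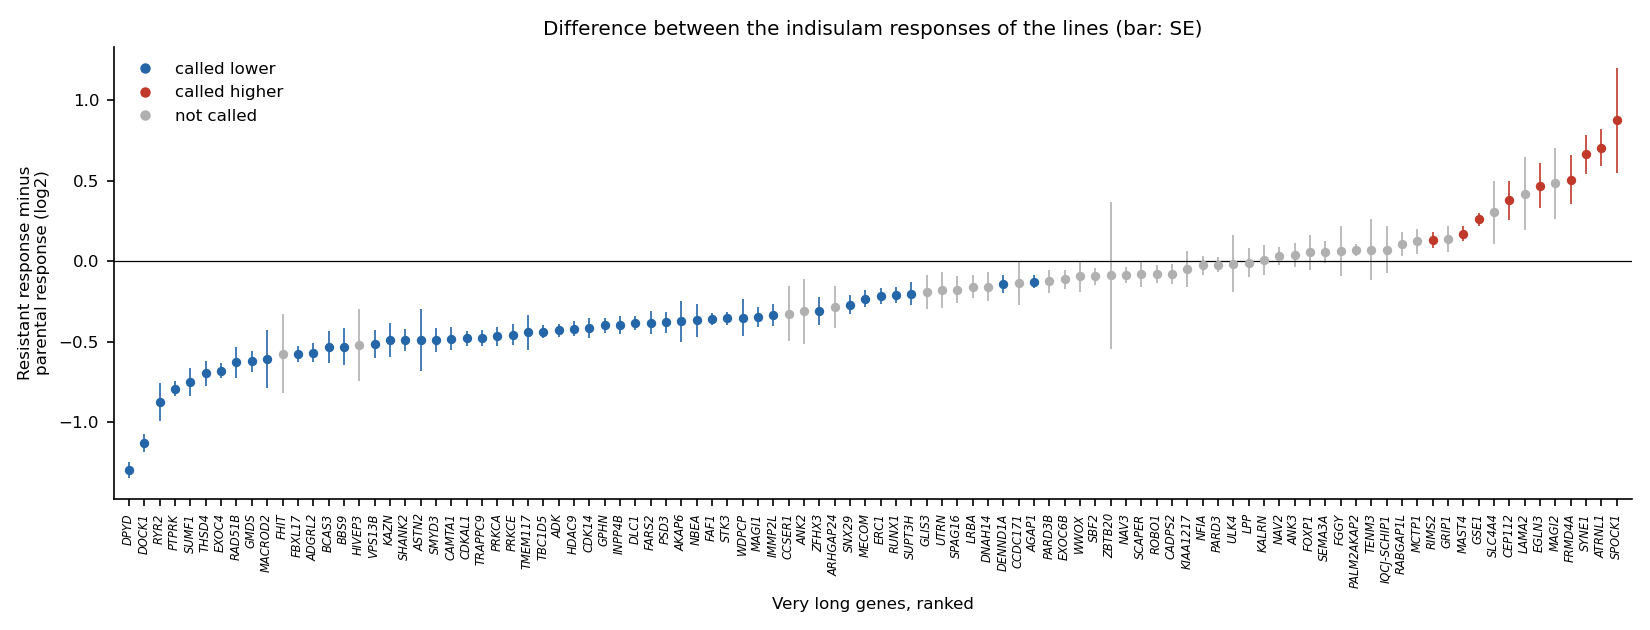
The resistant response minus the parental response (log2) of each of the 98 very long genes, ranked, with its standard error as a bar and coloured by the call at an adjusted p under 0.05. The 49 genes called lower include DPYD and DOCK1 at the left end, and 9 genes at the right were called higher.

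Set side by side, the calls in the lines showed which pairs of directions occurred. In 19 genes the parental response was higher and the resistant response lower, which was 19.4% of the 98 against 11.7% of the 10392 other protein-coding autosomal genes at 1 CPM or more. The difference of responses was called in all 19 of them. Opposite calls in the same fit make this likely beforehand, so it adds no support. They were ADGRL2, BCAS3, CAMTA1, CDKAL1, EXOC4, FAF1, FBXL17, MECOM, PRKCE, PSD3, PTPRK, RAD51B, RUNX1, RYR2, SMYD3, SNX29, SUMF1, TBC1D5 and TRAPPC9. The reverse pair, lower in parental and higher in resistant cells, occurred in 0 of the 98 and in 3.76% of the others. In a further 19 genes both responses were higher, among them NAV2, LPP, HDAC9 and STK3, and in 13 both were lower, among them SHANK2, KAZN, ANK3 and ULK4. These were 19.4% and 13.3% of the 98 genes, near the 16.2% and 13.5% of the others. LPP, a focal adhesion protein, was an example with nearly equal responses, at 102.3 and 108.1, then 140 and 155 CPM in parental cells and 126 and 132, then 172 and 188 CPM in resistant cells, or 0.49 ± 0.06 and 0.48 ± 0.06. Across the 98 genes the responses of the lines, which share no library, correlated with r = 0.53 and rho = 0.47. Across the other protein-coding autosomal genes r was 0.29 and rho 0.32. The points are genes of the same libraries and are not independent, so no test was made.

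**Figure D3:**
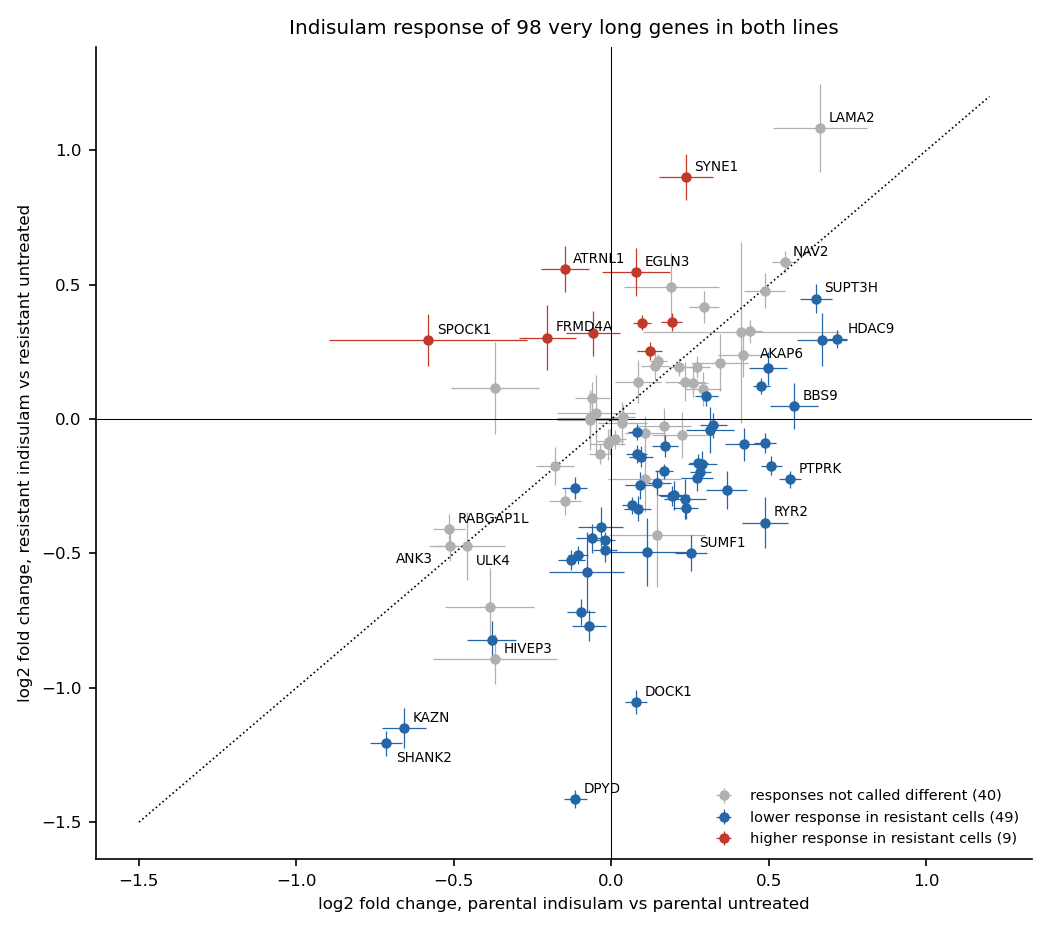
The log2 fold change of each of the 98 very long genes under indisulam in parental cells (x axis) and in resistant cells (y axis), with standard errors as bars, the dotted line marking equal responses and colours giving the call on their difference. The 49 genes called lower lie below the dotted line, and 19 of them were called higher in the parental and lower in the resistant response.

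The shift was graded with the span of the gene. Over 6 classes of protein-coding autosomal genes, from under 10 kb (1810 genes) through 10 to 50 kb (4705), 50 to 100 kb (1953), 100 to 200 kb (1301) and 200 to 500 kb (623) to the 98 above, the median difference of responses was -0.04, -0.07, -0.08, -0.10, -0.14 and -0.23. The share called lower went from 35.7% through 40%, 41.2%, 41.8% and 48.8% to 50%, and the share called higher from 25.3% through 23.6%, 19%, 16.2% and 11.1% to 9.18%. In parental cells the median response went from 0.03 in the shortest class to 0.12 in each of the longest pair, and in resistant cells it stayed between -0.04 and -0.01 up to 500 kb and was -0.09 above. Within the 98 genes the relation to span was weak (r = -0.13 for the difference of responses), and the relation to the longest intron weaker still (r = -0.08). The 72 genes whose canonical transcript also exceeded 500 kb had a median difference of -0.31, with 40 called lower, and the other 26 one of -0.15, with 9 called lower.

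**Figure D4:**
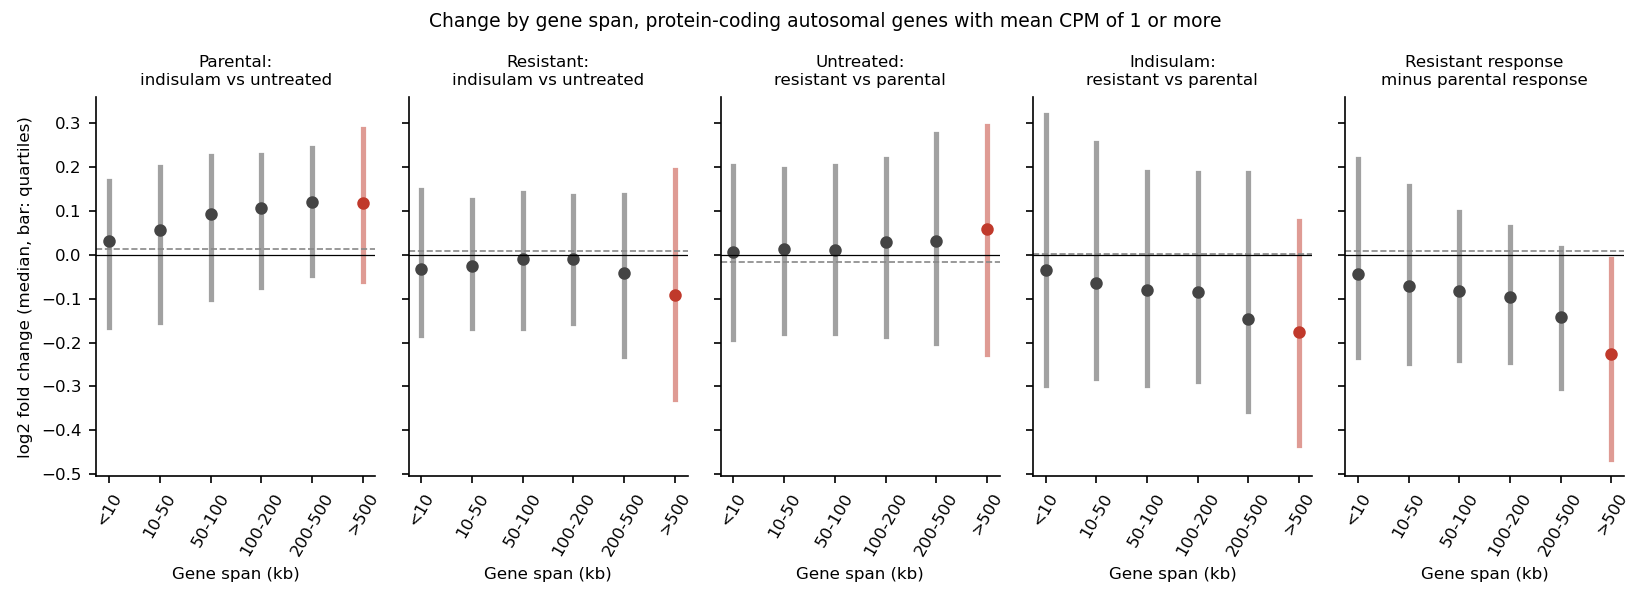
Median log2 fold change (points) with the quartiles (bars) in 6 classes of gene span for each of the 5 comparisons, the longest class in red, and the median over all genes tested as a dashed line. The median difference of responses, in the last panel, went from -0.04 in the shortest to -0.23 in the longest class.

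Since read level also went with the response, the genes were set beside others of like level. Between 1 and 10 CPM the median difference of responses was -0.11 in 38 very long genes and 0.13 in 2119 others. From 10 to 100 CPM it was -0.35 in 51 very long genes, with 34 called lower and 2 higher, and -0.08 in 6005 others, of which 41.8% were called lower and 20.5% higher. At 100 CPM or more it was -0.13 in 9 very long genes and -0.17 in 2268 others, so there the very long genes did not lie lower. In the resistant response the middle class had a median of -0.16, with 31 of 51 genes lower and 11 higher. The others of that class had a median of -0.03, with 35.7% lower and 26.9% higher. At 100 CPM or more the order was the opposite, with a median of 0.12 in the 9 very long genes, 5 higher and 3 lower. The others there had a median of -0.05, with 25.4% higher and 44.1% lower. With offsets for GC content and exonic length the median difference of all genes moved to -0.10 and that of the 98 genes to -0.27, which left a gap of -0.17 in place of -0.24.

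Untreated, the resistant line differed from the parental line in 68 of the 98 genes, 41 of them higher and 27 lower in resistant cells. Of all genes tested, 30.3% were higher and 29.9% lower, 60.1% in all. Of protein-coding autosomal genes at 1 CPM or more, 37.6% were higher and 33.1% lower. In all, 70.6% of that class were called, near the 69.4% of the very long genes. The median was 0.06 against -0.02 over all genes tested, but with offsets for GC content and exonic length the split turned to 29 higher and 44 lower, at a median of -0.05 against -0.08, so no direction of the group held in this comparison.

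SPOCK1 differed most between the lines. It had 23 and 26 reads in parental untreated and 292 and 276 in resistant untreated, or 0.210 and 0.243 against 3.94 and 4.25 CPM, a difference of 4.17 ± 0.15 on the log2 scale. HIVEP3 stood at 0.612 and 0.524 CPM in parental and at 6.51 and 6.16 CPM in resistant untreated cells, a difference of 3.48 ± 0.12. Both were below 1 CPM in all parental libraries and met the mean of 1 CPM only through the resistant ones, so a difference between the lines was built into their choice. GLIS3, a Krüppel-like transcription factor of pancreatic beta cell development, did not depend on this: it stood at 3.04 and 2.79 CPM in parental and 9.77 and 10.06 CPM in resistant untreated cells, higher by 1.76 ± 0.07 (adjusted p = 4.5e-16). DPYD was higher by 1.23 ± 0.03. INPP4B, a phosphatase of phosphoinositides, was higher by 1.18 ± 0.04, at 19.5 and 19.9 against 44.5 and 44.7 CPM. On the low side, FRMD4A was lower by 1.29 ± 0.11 on the log2 scale in resistant untreated cells, at 4.85 and 4.72 against 2.12 and 1.77 CPM. DOCK1 (-0.85 ± 0.04), ATRNL1 (-0.70 ± 0.08) and MCTP1 (-0.68 ± 0.05), a calcium-binding protein of the endoplasmic reticulum, were lower too. MAGI2 stood at 1.52 and 1.45 against 0.797 and 0.939 CPM, but met the mean of 1 CPM only through the parental groups.

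Under indisulam the resistant line differed from the parental line in 72 of the 98 genes, with 20 higher and 52 lower. Here 34.6% of all genes tested were higher and 34.9% lower, 69.5% in all, and of protein-coding autosomal genes at 1 CPM or more 33.7% were higher and 46.8% lower. The median was -0.18 against 0.00 over all genes tested and -0.07 over that class. This comparison set 18 h of drug in parental cells beside continuous drug in resistant cells, so line and length of treatment cannot be told apart.

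DOCK1 was the lowest, at 50.7 and 52.3 CPM in parental indisulam against 13.2 and 13.0 CPM in resistant indisulam, a difference of -1.98 ± 0.04 (adjusted p = 9.1e-22). SUMF1 was lower by 1.41 ± 0.06 on the log2 scale in resistant cells, RYR2 by 1.33 ± 0.08, HDAC9 by 1.00 ± 0.03 and EXOC4 by 0.91 ± 0.03. On the high side GLIS3 was higher by 1.57 ± 0.08, beside SPOCK1 (5.04 ± 0.17) and HIVEP3 (2.95 ± 0.15), for which the choice fixed the direction. EGLN3 stood at 2.44 and 2.21 CPM in parental and at 6.29 and 5.76 CPM in resistant cells, higher by 1.37 ± 0.10 (adjusted p = 8.9e-12). RIMS2, a scaffold of secretory vesicle release, was at 22.6 and 22.4 against 52.0 and 50.9 CPM, higher by 1.19 ± 0.04 (adjusted p = 1.8e-18). No library of the lines overlapped in any of these genes, but this was a condition for naming them and adds no support.

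Grouped by role, the very long genes did not all follow the same course. The counts stand beside 50% higher and 14.3% lower of all 98 genes in the parental response, 25.5% and 46.9% in the resistant response and 9.18% and 50% in the difference, and beside the shares of all genes tested given above. Of 13 enzymes of metabolism, glycosylation and proteolysis, 9 fell and 1 rose in resistant cells, against 2 that fell and 3 that rose in parental cells, and the difference of responses was lower in 9 and higher in 1. Besides DPYD and SUMF1 they included ADK, at 177 and 175, then 172 and 176 CPM in parental cells and 178 and 170, then 127 and 128 CPM in resistant cells. ADK was thus low in the resistant indisulam libraries alone, with a difference of -0.43 ± 0.04 (adjusted p = 2.0e-08). GMDS, which starts the synthesis of GDP-fucose, did likewise, with a difference of -0.62 ± 0.07. Of 10 regulators of small GTPases, 8 fell and 0 rose in resistant cells and 3 fell and 4 rose in parental cells, and the difference was lower in 6 and higher in 0. Of 14 genes of membrane traffic and autophagy, 9 rose and 1 fell in parental cells and 3 rose and 5 fell in resistant cells.

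Kinases, phosphodiesterases, signal adaptors and ubiquitin ligases numbered 10, of which 6 rose and 2 fell in parental and 4 rose and 6 fell in resistant cells. STK3, the Hippo pathway kinase MST2, was among those that rose in both, by 0.48 ± 0.04 in parental and 0.12 ± 0.03 in resistant cells. INPP4B fell in both, by 0.13 ± 0.04 and 0.52 ± 0.04, though the parental call was lost in DESeq2 and without parental untreated 2 or parental indisulam 2 (-0.19 to -0.11 over the alternatives). Of 13 transcription and chromatin regulators, 8 rose and 0 fell in parental cells, and 4 rose and 5 fell in resistant cells, with a difference called lower in 7 and higher in 1. RUNX1, the leukaemia-associated transcription factor, was one that changed direction, at 50.8 and 51.2, then 54.4 and 53.4 CPM in parental cells and 72.4 and 76.8, then 67.8 and 68.4 CPM in resistant cells. Its changes were small, 0.08 ± 0.03 and -0.13 ± 0.03.

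Of 11 genes of the cytoskeleton and its linkers, 5 rose and 2 fell in each of the lines, and the difference of responses was higher in 3 (SYNE1, FRMD4A and CEP112) and lower in 0. Of 11 scaffolds of junctions, polarity and adhesion, 7 rose and 3 fell in parental and 5 rose and 3 fell in resistant cells, and the difference was lower in 4 and higher in 0. No test compared the roles with each other, and the list of fragile site genes that follows shares LPP, DPYD, MACROD2 and others with the roles. Of 16 genes at common fragile sites, 8 rose and 3 fell in parental cells and 3 rose and 8 fell in resistant cells, and the difference was lower in 8 (a median of -0.35) and higher in 0. The share called lower in the difference, 50%, was that of the 98 genes as a whole, and the share that rose in parental cells, 50%, was near the 44.4% of comparable genes. WWOX, at the fragile site FRA16D, was not among those 8: it stood at a mean of 8.11 and 9.53 CPM in parental and 6.61 and 7.29 CPM in resistant cells without and with the drug, and its difference was -0.09.

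**Figure D5:**
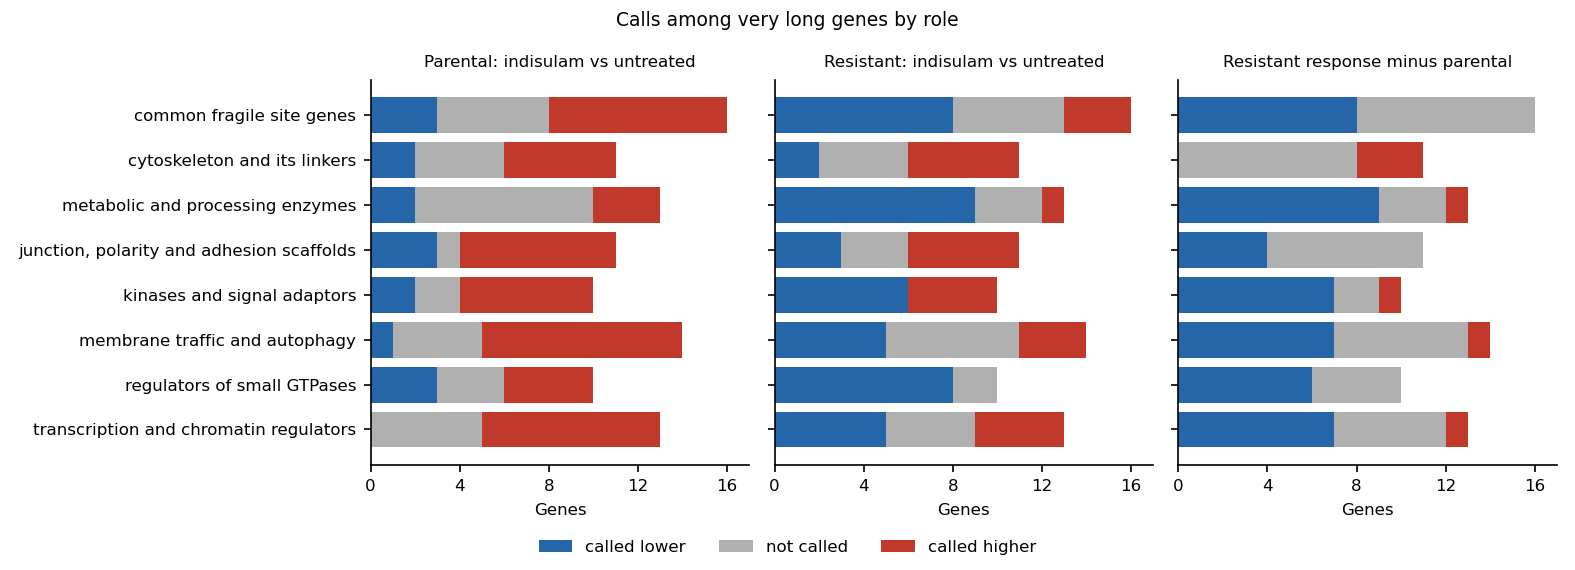
Number of very long genes called lower (blue), not called (grey) and called higher (red) in the parental response, the resistant response and their difference, for each role with at least 10 of the genes. Regulators of small GTPases had 8 of 10 genes lower in the resistant response, and genes of the cytoskeleton had none lower in the difference.

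The factors known to carry polymerase through long genes, none of them a very long gene themselves, were counted in the same way. Of 35 such genes, 17 rose and 10 fell in parental cells (48.6% and 28.6%), and 5 rose and 11 fell in resistant cells (14.3% and 31.4%). Except for the fewer rises in resistant cells, these shares were near those of protein-coding autosomal genes at 1 CPM or more. Their difference of responses was lower in 17 (48.6%) and higher in 5 (14.3%), at a median of -0.11. Of protein-coding autosomal genes at 1 CPM or more, 40.4% were called lower and 21.2% higher, at a median of -0.08. CDK12, the elongation kinase, rose by 0.21 ± 0.03 in parental cells and stood at -0.02 ± 0.03 in resistant cells, a difference of -0.23 ± 0.04 (adjusted p = 1.0e-04). TOP1, topoisomerase I, had a difference of -0.16 ± 0.04 and SUPT16H, a subunit of the histone chaperone FACT, one of -0.37 ± 0.04 (adjusted p = 5.5e-08). TOP2B, a topoisomerase of long neuronal genes, fell alike in both lines, by 0.42 ± 0.03 and 0.41 ± 0.03. The 5 with a higher difference were TOP2A (0.36 ± 0.05), RECQL5 (0.31 ± 0.05), SNRNP70 of U1 snRNP (0.19 ± 0.06), SUPT6H (0.16 ± 0.05) and SFPQ (0.12 ± 0.04). Whether the levels of these factors had a part in the values of the very long genes was not tested.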

How the data were processed

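The authors deposited raw read counts per gene for each of the 8 libraries. Per the study's methods and the submitters' processing notes, stranded polyadenylated RNA libraries were trimmed with SeqPurge and aligned with HISAT2 2.2.1 to GRCh38, Picard marked duplicates, which were listed apart, and HTSeq was named. The strand setting and annotation release were not given in the sources used here. Reads assigned to no gene (4.43% to 5.94%) or to more than 1 gene (5.61% to 7.33%), as shares of all unduplicated reads assigned, ambiguous or in no gene, stayed out of library sizes. GENCODE 44 matched 60419 of 60675 identifiers.

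The counts were filtered with filterByExpr (16661 genes, all 98 very long genes kept), scaled by TMM and fitted in edgeR 4.0.16 (R 4.3.3; quasi-likelihood, robust, 4 group means, 4 residual degrees of freedom), with Benjamini-Hochberg adjustment over all genes. Printed CPM are TMM-scaled. An SE is the size of the log2 fold change over the root of F. Alternatives included DESeq2 1.42.0 and smooth GC and length offsets (mgcv 1.9.3). The pipeline was tested on simulated data. An exact permutation test of 2 against 2 libraries cannot go below 0.333 and was not used. Intervals reflect these libraries and counting error.

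The genes named were, per comparison, the 5 largest rises and 5 largest falls among called genes whose libraries did not overlap, the 5 longest, the 5 with most reads and the neighbours of each threshold. For the difference of responses, drug changes between same-numbered libraries were required not to overlap between the lines, although nothing stated that the numbers pair the libraries. Other genes were named as members of a count or a role and chosen after their values were seen. The genes and role lists were chosen with earlier results of these data known, and the lists were completed once the genes were known. Exon overlap and canonical transcripts came from GENCODE 44.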

Additional observations from a re-analysis of the deposited data

Results flagged for a closer look

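The named genes below responded to indisulam by different amounts in parental and resistant cells, by a test of that difference (log2, resistant minus parental response, edgeR's quasi-likelihood test adjusted over all genes tested). It was higher in resistant cells for ATRNL1 (0.71), SYNE1 (0.66), FRMD4A (0.51), EGLN3 (0.47) and RIMS2 (0.13, adjusted p = 0.041). SPOCK1 (0.88) was called too, but met the mean of 1 CPM only through the resistant groups, so its value is a description. The call of SPOCK1 was lost in DESeq2 and without parental untreated 2, either parental indisulam library or resistant indisulam 2 (0.77 to 0.99). The difference of responses went the other way in the remaining genes. It was lower by under 0.5 for SUPT3H (-0.20, adjusted p = 0.028), FAF1 (-0.36), AKAP6 (-0.37, adjusted p = 0.017), INPP4B (-0.40), HDAC9 (-0.42), ADK (-0.43), TBC1D5 (-0.44), SHANK2 (-0.49) and KAZN (-0.49). It was lower by more for BBS9 (-0.53), MACROD2 (-0.61), EXOC4 (-0.68), SUMF1 (-0.75), PTPRK (-0.79), RYR2 (-0.87), DOCK1 (-1.13) and DPYD (-1.30). Stricter thresholds aside, the call of SUPT3H was lost in DESeq2, with library totals and with no filter. It was also lost at a mean CPM of 1 or more, in protein-coding genes alone and without any of 6 libraries (-0.24 to -0.09). The call of AKAP6 was lost in DESeq2, with library totals and at a mean CPM of 1 or more. Without parental untreated 1 or resistant indisulam 1 the AKAP6 call was lost too (-0.53 to -0.23).

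The share of reads assigned to no gene, which lies outside the gene counts, fell by 1.33 percentage points under indisulam in parental libraries and rose by 1.04 points in resistant ones. Every library moved the way of its line, a difference of 2.38 points that was not tested.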

How the results depend on the processing

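In all alternatives run, the median of the very long genes kept its sign except between the untreated lines, where GC and length offsets turned 0.06 to -0.05, also with the replicate block (-0.05). Counts of calls in both directions together moved past 1.5 times only when tested against 0.5 log2 units, to 3 (parental response), 10 (resistant response), 18 (untreated lines), 18 (lines on drug) and 7 (difference of responses). Medians that moved by more than the spread are given in that order of comparisons. Parental: 0.1239 with DESeq2's size factors, 0.1242 in DESeq2, 0.0509 with library totals, 0.087 with no filter, 0.0608 at a mean CPM of 1 or more, 0.0967 in the groups compared alone, 0.0632 in protein-coding genes alone, 0.132 with offsets, 0.1325 with offsets and block, 0.1272 for 322 genes over 300 kb and 0.1883 for 12 over 1 Mb. Resistant: -0.0423 with totals, -0.0629 at CPM 1 or more, -0.0621 over 300 kb and -0.0088 over 1 Mb. Untreated lines: 0.0732 with DESeq2's size factors, 0.0734 in DESeq2, 0.0322 with totals, 0.0348 in protein-coding genes, -0.0506 with offsets, -0.0503 with offsets and block and 0.1082 over 1 Mb. Lines on drug: -0.089 with totals, -0.0982 at CPM 1 or more, -0.2783 with offsets, -0.277 with offsets and block and -0.2965 over 1 Mb. Difference of responses: -0.1099 with totals, -0.1405 at CPM 1 or more, -0.1596 in protein-coding genes, -0.2708 with offsets, -0.2693 with offsets and block and -0.1851 over 300 kb. Library totals took the median of all genes to -0.05, 0.06, -0.04, 0.09 and 0.13, and left the gap of the very long genes to it at 0.1017, -0.1005, 0.0752, -0.1799 and -0.2353. GC and length offsets left gaps of 0.036, -0.0533, 0.0292, -0.1057 and -0.1664. The cause of the other moves was not tested. The correlation of responses was 0.538 on log2(CPM + 1).

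Leaving out each library in turn gave medians of 0.0893 to 0.1198, -0.1246 to -0.0631, 0.0453 to 0.0836, -0.1866 to -0.118 and -0.2594 to -0.193, with 50 to 61, 64 to 74, 60 to 68, 69 to 73 and 51 to 56 calls. Deviations of same-numbered libraries from their group means had correlations of -0.192 to 0.137 over 6 pairs of groups. With 2 libraries per group these cannot settle whether the numbers mark a pairing. The replicate block gave 61, 72, 68, 72 and 59 calls. Of 2637 alternative values of called named genes, 188 missed the threshold, 88 of them against 0.5 log2 units, and 0 changed sign. By direction, parental falls went from 14 to 9 in DESeq2 and to 8 at an adjusted p under 0.01, and higher differences of responses from 9 to 4 in DESeq2, 14 at a mean CPM of 1 or more and 6 at an adjusted p under 0.01.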
